A study of Mus musculus with 16 samples.

Results

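The genes described here are 7 genes for secreted effector proteins of T helper 2 (Th2) cells: Il3, Csf2 (encoding GM-CSF), Il4, Il13, Il5, Il10 and Areg (encoding amphiregulin). They were taken by symbol from a table of 18138 mouse genes, in which each has 1 entry. They were followed in D10 cells, a Th2 cell line that goes back to a single mouse T cell clone and was maintained with recombinant human IL-2. Control cells and cells pre-incubated for 1 h with 10 µM Akti1/2, an allosteric inhibitor of the kinases Akt1 and Akt2, were collected at 0, 2, 6 or 12 h after CD3/CD28 stimulation, which was given as biotin-coupled antibodies cross-linked by streptavidin. The sample labels and the study's methods call the control cells untreated, while its results describe them as given solvent, and the same treatment applied at all 4 times in each arm. Each of the 8 groups has 2 arrays. No source used here says whether these came from separate cultures, so p-values measure the spread between these samples only, which may be technical.

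When a Th2 cell meets antigen, signals from the T cell receptor and CD28 activate transcription factors of the NFAT, AP-1 and NF-κB families, and these switch on cytokine genes that were opened during Th2 differentiation under GATA3. Akt lies downstream of phosphoinositide 3-kinase in the same signalling and also holds FOXO factors out of the nucleus. The products act on different cells: IL-4 on B cells, IL-4 and IL-13 on macrophages and epithelia, and IL-5 on eosinophils. IL-3 and GM-CSF act on myeloid progenitors and mast cells, IL-10 as a brake on inflammation, and amphiregulin on the epidermal growth factor receptor.

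The file places 5 of the genes in band 11qB1.3 of chromosome 11, Il10 in 1qE4 and Areg in 5qE1. In the RefSeq gene order (GRCm38.p6), Il4 and Il13 lie between Kif3a and Rad50, Il5 lies between Rad50 and Irf1, and Csf2 and Il3 lie together between P4ha2 and Acsl6. RefSeq promoter sequences matched 6 of the 7 genes by symbol (not Il10). The 250 bases before the annotated starts of Il4 (chr11:53618666-53618915, minus strand), Il13 (chr11:53634703-53634952, minus strand) and Il5 (chr11:53720544-53720793, plus strand) are printed 5′ to 3′ because these neighbours gave the most different values with Akti1/2 below. Capitals mark the NFAT core, GGAAA or its reverse complement.
Il4: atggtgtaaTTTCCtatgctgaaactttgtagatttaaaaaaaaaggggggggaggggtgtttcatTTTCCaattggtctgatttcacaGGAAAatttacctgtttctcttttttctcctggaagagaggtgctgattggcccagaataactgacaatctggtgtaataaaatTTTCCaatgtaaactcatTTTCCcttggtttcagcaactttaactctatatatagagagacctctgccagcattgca
Il13: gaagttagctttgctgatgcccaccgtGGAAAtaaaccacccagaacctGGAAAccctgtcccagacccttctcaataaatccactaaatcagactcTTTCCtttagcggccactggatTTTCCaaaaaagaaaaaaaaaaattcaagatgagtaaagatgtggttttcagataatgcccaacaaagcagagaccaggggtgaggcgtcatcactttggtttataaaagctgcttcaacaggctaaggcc
Il5: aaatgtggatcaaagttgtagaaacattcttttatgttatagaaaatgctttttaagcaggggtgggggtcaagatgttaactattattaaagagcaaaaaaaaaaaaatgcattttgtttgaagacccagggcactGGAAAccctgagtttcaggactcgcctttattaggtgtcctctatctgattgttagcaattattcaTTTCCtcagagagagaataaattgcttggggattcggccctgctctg

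The NFAT core was found 5 times before Il4, 4 times before Il13, 2 times each before Il5 and Csf2 (chr11:54249900-54250149, minus strand), and 1 time each before Il3 (chr11:54267280-54267529, minus strand) and Areg (chr5:91139349-91139598, plus strand). A second Il4 entry, whose start lies inside the gene, holds none. Of 32817 mouse promoter windows of the same length, 55.6% hold the motif, so its presence alone is common. Searched on both strands in the same way, the AP-1 motif (TGANTCA), the NF-kB motif, the FOXO core (TGTTTAC) and the STAT3 motif (TTCNNNGAA) matched none of the 6 windows. They are held by 6.75%, 7.25%, 3.16% and 7.01% of all windows. The GATA motif (AGATAA, 9.99% of windows) occurred 1 time each before Il13, Csf2 and Il3. The TATA box (TATAAA, 12.4%) occurred before Areg and, as an overlapping match on each strand, before Il13. The STAT6 motif (5.85%) occurred 1 time, before Il4, where it overlaps an NFAT core. These are matches of letters only, and binding was not measured.

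**Figure D1:**
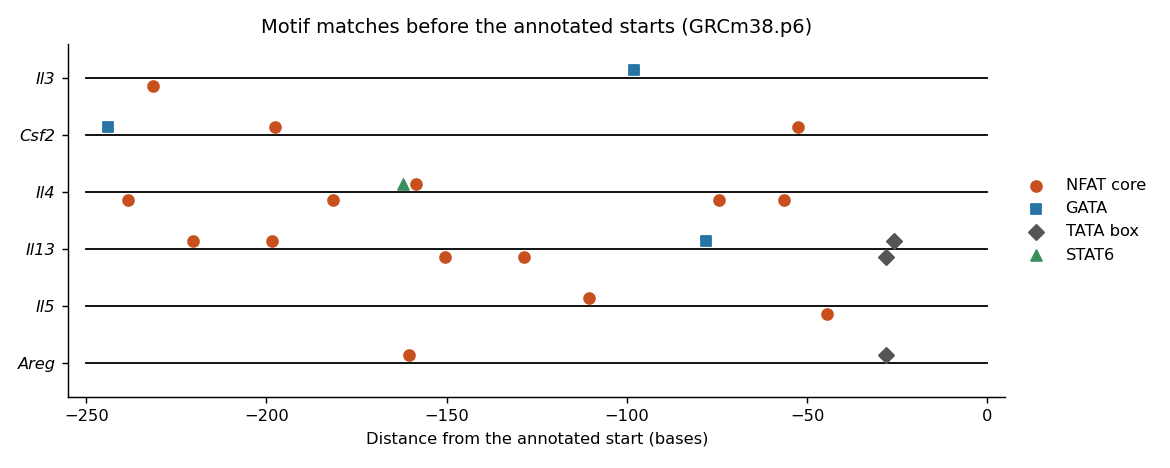
Position of motif matches in the 250 bases before the annotated start of 6 genes, in bases from the start (x axis), with matches on the gene's own strand above the line and those on the other strand below it. Il4 has 5 and Il13 has 4 NFAT cores, against 1 or 2 in the other windows.

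The labelled cell type was checked against marker genes. Of 8 T cell markers on the array, 6 were above background on all 16 arrays, with Cd3g the brightest (intensity 5711.8 to 12020.1). Cd4 was above background on 13 arrays and Thy1 on 0. Of 5 Th2 markers, Gata3 (4229.9 to 7898.8), Il1rl1 and Ccr8 were above background on all 16 arrays and Maf and Ccr4 on 0. Markers of CD8 T cells, Th1, Th17 and regulatory T cells, NK cells and myeloid cells were above background on 0 arrays, as were 2 of 3 B cell markers. Of 4 mast cell or basophil markers, Cpa3 and Ms4a2 were above background on 0 arrays and Fcer1a on 16 (1314.9 to 4345.9), with a summed intensity of the list per array of 1719.5 to 4826.2 (median 3600.7). Mcpt8, a basophil protease gene above background on 12 arrays, rose at 6 h in control cells (adjusted p = 6.45e-05). Its change was lower in the presence of Akti1/2 at 6 h (adjusted p = 0.00495) and 12 h (adjusted p = 0.00821). At 0 h, however, Mcpt8 was above background on only 1 control array and 0 Akti1/2 arrays. It entered the test through stimulated groups, so these p-values rest on a dim 0 h level and add no support. The change of Fcer1a was lower at 12 h (-0.69, adjusted p = 0.0159), a call that was lost without replicate 1 of either 0 h group or replicate 2 of control cells at 12 h (adjusted p = 0.0582 to 0.0664). The part of these markers in the results below was not tested, and in bulk samples fewer cells of a type and less RNA per cell cannot be told apart.

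Values are given as log2 of the background-corrected, quantile-normalized intensity, and differences on the same scale, in order of replicate 1 and 2. A gene counted as above background on an array where fewer than 1% of the negative controls were as bright. All 7 genes were among the 7395 genes tested, and 6 were above background on all 16 arrays. Adjusted p-values are from limma with Benjamini-Hochberg adjustment over the 7395 genes, and a difference was called at an adjusted p under 0.05. Because a probe's brightness depends on the probe, no gene's level is set against another's. All times within an arm were compared with the same 0 h arrays, so the changes at 2, 6 and 12 h are not independent.

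In control cells, all 7 genes rose at 2, 6 and 12 h of CD3/CD28 stimulation. The share of all genes tested that was called higher at these times was 4.42%, 12.1% and 12.7%. The share called lower was 5.86%, 15.4% and 15.1%. Il3 was not above background at 0 h in either arm. It passed the filter on dim genes through stimulated groups, so it adds no support to counts that use the 0 h level. In the presence of Akti1/2, 6 of the 7 rose at 2 h and Il5 fell, all 7 rose at 6 h, and 6 rose at 12 h, against 17.8%, 15.5% and 21.1% of genes called higher and 20.9% called lower at 2 h. Before stimulation, 0 of the 7 genes differed between the arms by limma, where 0.0541% of genes were called and 381 of 7395 had an unadjusted p under 0.05. Among the 7, 3 had one (Csf2 0.00125, Areg 0.00642 and Il4 0.00743). During stimulation Akti1/2-treated cells were lower than control cells in 5 of 7 genes at 2 h and in 6 at both later times, against 14.9%, 18.8% and 24.8% of genes, and Il4 alone among the 7 was higher, at 6 and 12 h, where 18.8% and 24.2% of genes were.

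**Figure D2:**
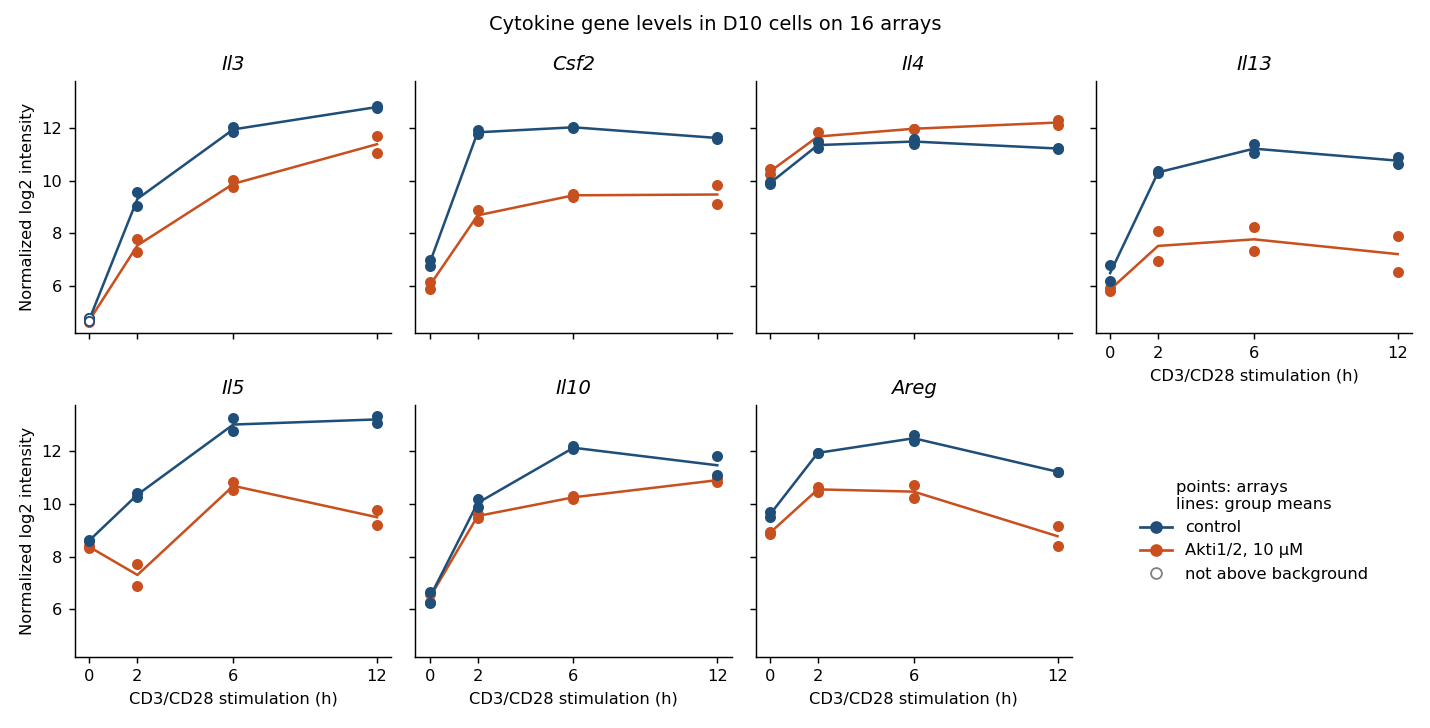
Normalized log2 intensity of the 7 genes (y axis) against hours of CD3/CD28 stimulation (x axis) in control and Akti1/2-treated cells, with a point per array and lines through the group means. Open points mark arrays on which Il3 was not above background, and the Akti1/2 line lies above the control line only for Il4.

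Il3 encodes a growth factor for haematopoietic progenitors and mast cells. In control cells it was not above background at 0 h (4.80 and 4.69) and reached 9.05 and 9.56 at 2 h, 11.83 and 12.05 at 6 h, and then 12.81 and 12.77 at 12 h. It was the only one of the 7 that was not above background at rest, and its highest level came last. In the presence of Akti1/2 it was again not above background at 0 h (4.64 and 4.77) and measured 7.28 and 7.80 at 2 h, 10.01 and 9.74 at 6 h, and then 11.06 and 11.70 at 12 h. Both Akti1/2 arrays were below both control arrays at each time of stimulation. Against the lowest signal above background, on the background-corrected scale, the level in control cells was at least 12.7-fold higher at 2 h, 78.9-fold at 6 h and 142.3-fold at 12 h, and in Akti1/2-treated cells at least 3.7-fold, 18.6-fold and 52.8-fold. The arms differed by -1.76 ± 0.23 (SE) at 2 h (adjusted p = 0.000247), -2.07 at 6 h (3.09e-05) and -1.42 at 12 h (0.000263), which is 3.39-fold, 4.19-fold and 2.67-fold lower with Akti1/2. Since the 0 h level is only a bound in both arms, the test of the difference in response (-1.72, -2.03 and -1.38, adjusted p = 0.0096, 0.00121 and 0.00618) rests on these later differences.

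Csf2 encodes GM-CSF, which drives the growth and activation of granulocytes and macrophages. It measured 6.77 and 6.97 in control cells at 0 h, 11.91 and 11.75 at 2 h, 12.01 and 12.03 at 6 h, and then 11.56 and 11.67 at 12 h. Most of the rise was thus present at 2 h, a 31.1-fold increase (4.96 ± 0.20 on the log2 scale, adjusted p = 1.6e-08). With Akti1/2 it measured 5.89 and 6.15 at 0 h, 8.48 and 8.88 at 2 h, 9.50 and 9.38 at 6 h, and then 9.11 and 9.83 at 12 h. The groups did not overlap at any time, but the gap at 0 h (-0.85 ± 0.20, adjusted p = 0.453) was not called. It was -3.14 at 2 h (8.84-fold lower, adjusted p = 1.81e-06), -2.58 at 6 h (5.97-fold, 2.8e-06) and -2.14 at 12 h (4.42-fold, 4.36e-06). The response itself was smaller with Akti1/2 at 2 h (-2.29 ± 0.29, adjusted p = 0.00138), 6 h (-1.73, 0.00169) and 12 h (-1.29, 0.00485). Between 2 and 6 h Csf2 rose further with Akti1/2 (0.76, adjusted p = 0.0152), a call lost without replicate 1 of the 2 h (0.56, 0.110) or of the 6 h Akti1/2 cells (0.70, 0.0892) and in a fit of only those groups (0.0532).

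Il4 encodes the cytokine that directs Th2 differentiation and IgE class switching, and among the 7 it was the gene with called higher levels in the presence of Akti1/2. Control cells measured 9.94 and 9.86 at 0 h, 11.45 and 11.24 at 2 h, 11.58 and 11.38 at 6 h, and then 11.24 and 11.19 at 12 h. This rise was 2.73-fold at 2 h (1.45 ± 0.14, adjusted p = 3.45e-05) and 2.99-fold at 6 h (adjusted p = 6.4e-06). With Akti1/2 it measured 10.44 and 10.24, 11.84 and 11.50, 11.97 and 11.96, and 12.31 and 12.09 at the same times. Every Akti1/2 array was above both control arrays of its time, 0 h included. The gap was 0.44 at 0 h (adjusted p = 0.764), 0.32 at 2 h (0.101), 0.48 ± 0.14 at 6 h (0.0161) and 0.99 at 12 h (1.98-fold higher, 9.75e-05). At 2 h it was called with the replicate as a block (adjusted p = 0.0445) and without background correction (0.049). At 6 h the call was lost with arrays scaled to the same mean (0.36, adjusted p = 0.0934), in a fit of only those groups (0.0636), and without replicate 2 of the control cells (0.38, 0.121) or either Akti1/2 array (0.0507 and 0.0534). The response to stimulation differed between the arms by -0.12 at 2 h (95% interval -0.55 to 0.31), 0.04 at 6 h (-0.39 to 0.47) and 0.54 at 12 h (0.11 to 0.97, adjusted p = 0.0524). None of these was called, whereas the response of the other 6 genes was smaller with Akti1/2 at 6 h. The 12 h difference of Il4 was called with the replicate or the chip as a block (adjusted p = 0.0186 and 0.0235), in a fit of only those groups (0.0351), with genes above background on all arrays (0.0354), without background correction (0.0150), and without either 2 h Akti1/2 array or replicate 2 at 12 h with Akti1/2.

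Il13, which encodes a cytokine of mucus production and airway responses, lies beside Il4 and had the widest spread among the Akti1/2 arrays of stimulated cells. In control cells it measured 6.20 and 6.78 at 0 h, 10.35 and 10.27 at 2 h, 11.05 and 11.37 at 6 h, and then 10.89 and 10.62 at 12 h. The increase was 14.1-fold at 2 h, 26.3-fold at 6 h and 19.2-fold at 12 h (adjusted p = 0.000137, 9.17e-06 and 1.92e-05). With Akti1/2 it measured 5.80 and 5.93, 6.96 and 8.08, 7.32 and 8.22, and 6.54 and 7.88. Replicate 1, on the first chip, was the lower one in each stimulated Akti1/2 group, and these 3 groups overlap each other. The arms differed by -2.79 ± 0.43 at 2 h (6.91-fold lower, adjusted p = 0.000864), -3.44 at 6 h (10.8-fold, 8.09e-05) and -3.55 at 12 h (11.7-fold, 3.26e-05). Within the first and second chip the difference was -3.39 and -2.18 at 2 h, -3.73 and -3.15 at 6 h, and then -4.08 and -3.01 at 12 h. The 12 h difference was -2.88 without replicate 1 and -4.23 without replicate 2 of the Akti1/2 cells. The smaller response was called at 2 h (-2.16, adjusted p = 0.0492), 6 h (-2.81, 0.00735) and 12 h (-2.92, 0.00334), and the 2 h call was lost when any of 11 of the 16 arrays was left out (adjusted p = 0.0615 to 0.153) and with no filter on dim genes (0.0991). What rise remained with Akti1/2 was 1.66 at 2 h (adjusted p = 0.0106), 1.91 at 6 h (0.00509) and 1.35 at 12 h (0.0239). These calls depended on replicate 2 of the stimulated group: without it the rise was 1.10 (adjusted p = 0.111), 1.45 (0.0559) and 0.67 (0.258), and without replicate 1 of the 0 h Akti1/2 cells the 2 and 12 h calls were also lost (0.0543 and 0.0969), as was the 12 h call without replicate 2 (0.0707) or the filter on dim genes (0.0557).

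Il5, the gene for the eosinophil growth factor, had a gap between the arms at 12 h close in size to that of Il13. Control cells measured 8.61 and 8.64 at 0 h, 10.43 and 10.28 at 2 h, 12.78 and 13.25 at 6 h, and then 13.34 and 13.08 at 12 h. It rose 3.33-fold at 2 h, 21.0-fold at 6 h and 24.1-fold at 12 h (adjusted p = 0.000987, 1.52e-07 and 9.89e-08), so that most of its rise came after 2 h. With Akti1/2 it measured 8.35 and 8.39 at 0 h, fell to 6.89 and 7.73 at 2 h, measured 10.84 and 10.54 at 6 h, and then 9.22 and 9.78 at 12 h. This made Il5 the only one of the 7 to fall upon stimulation. The fall at 2 h was -1.06 ± 0.26 (2.09-fold, adjusted p = 0.00704) and became -0.65 (adjusted p = 0.0667) without replicate 1 of the 2 h Akti1/2 cells. The rise from 2 to 6 h with Akti1/2 was 3.38 (10.4-fold, adjusted p = 1.74e-05). It was followed by a fall of -1.19 from 6 to 12 h (adjusted p = 0.00799), which was not called without replicate 1 of the 12 h Akti1/2 cells (-0.91, 0.0858). The arms differed by -3.05 ± 0.26 at 2 h (8.28-fold lower, adjusted p = 1.41e-05), -2.33 at 6 h (5.01-fold, 3.09e-05) and -3.71 at 12 h (13.1-fold, 4.26e-07), and the response by -2.80, -2.08 and -3.46 (adjusted p = 0.0015, 0.00216 and 3.55e-05).

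Il10 encodes a cytokine that restrains macrophages and other T cells. In control cells it measured 6.65 and 6.26 at 0 h, 10.18 and 9.90 at 2 h, 12.07 and 12.20 at 6 h, and then 11.83 and 11.11 at 12 h. The increase was 12.0-fold at 2 h and 51.4-fold at 6 h (adjusted p = 3.49e-07 and 3.05e-09). With Akti1/2 it measured 6.29 and 6.60, 9.47 and 9.62, 10.32 and 10.19, and 10.99 and 10.82. The gap between the arms was thus widest at 6 h and small at the other times. It was -0.50 ± 0.21 at 2 h (adjusted p = 0.100), -1.88 at 6 h (3.67-fold lower, 3.95e-05) and -0.56 at 12 h (1.48-fold, 0.0449). The 2 h difference was called without either 12 h control array (adjusted p = 0.043 and 0.0439). The 12 h call was lost when any of 9 arrays was left out (adjusted p = 0.0508 to 0.466), with the chip as a block (0.0536), in a fit of only those groups (0.0876) and with no filter on dim genes (0.0949). Without replicate 1 of control cells at 12 h the value was -0.20. The response was smaller with Akti1/2 at 6 h (-1.87 ± 0.30, adjusted p = 0.00135), while it differed by -0.49 at 2 h (95% interval -1.15 to 0.17) and -0.56 at 12 h (-1.21 to 0.10), neither called. Without replicate 2 of control cells at 12 h the 12 h difference was called (-0.92, adjusted p = 0.0223).

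Areg encodes amphiregulin, an epithelial growth factor of the EGF family that Th2 cells also secrete. In control cells it measured 9.70 and 9.50 at 0 h, 11.93 and 11.95 at 2 h, 12.61 and 12.38 at 6 h, and then 11.22 and 11.23 at 12 h. The increase was 5.05-fold at 2 h, 7.43-fold at 6 h and 3.08-fold at 12 h (adjusted p = 2.19e-05, 1.19e-06 and 0.000153). With Akti1/2 it measured 8.94 and 8.87, 10.46 and 10.65, 10.22 and 10.72, and 8.41 and 9.15. Its level in the 12 h Akti1/2 cells overlapped that at 0 h, a change of -0.12 (95% interval -0.59 to 0.34, adjusted p = 0.677). At 0 h the Akti1/2 arrays were already below the control arrays, by a difference of -0.70 ± 0.21 that was not called (adjusted p = 0.727). The arms then differed by -1.38 at 2 h (2.61-fold lower, adjusted p = 0.000793), -2.02 at 6 h (4.06-fold, 2.29e-05) and -2.45 at 12 h (5.45-fold, 2.27e-06). The response was smaller at 6 h (-1.32 ± 0.30, adjusted p = 0.00923) and 12 h (-1.75, 0.000934) and differed by -0.69 at 2 h (95% interval -1.34 to -0.03, adjusted p = 0.170).

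**Figure D3:**
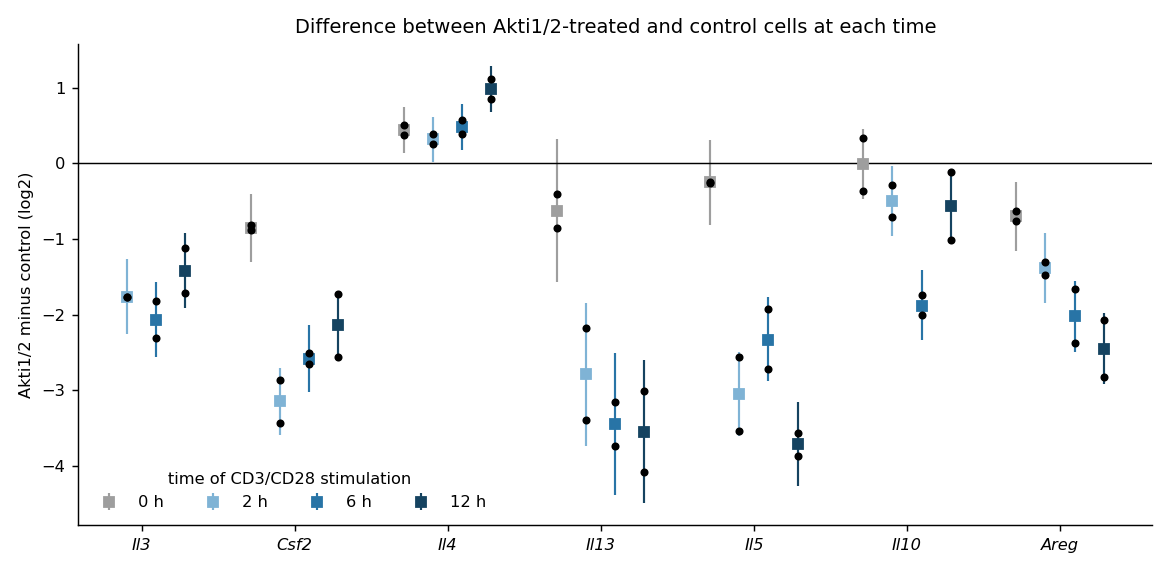
Akti1/2 minus control on the log2 scale (y axis) for each gene (x axis) at 0, 2, 6 and 12 h, as the limma estimate with its 95% interval (squares and bars, 2 arrays per group) and the difference within each chip (black points). Il4 lies above 0 at all 4 times, Il13 and Il5 reach the lowest values, and Il3 has no value at 0 h because it was not above background.

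Background correction set the size of the changes of genes that were dim at rest. Without it, Il3 rose in control cells by 2.46, 4.89 and 5.73 on the log2 scale at 2, 6 and 12 h in place of fitted changes of 4.56, 7.19 and 8.04, so its bounds hold only on the corrected scale. Il10 then rose by 2.52, 4.50 and 3.86 (in place of 3.59, 5.68 and 5.02), Il13 by 2.75, 3.59 and 3.16 (3.82, 4.72 and 4.26) and Csf2 by 4.01, 4.20 and 3.81 (4.96, 5.15 and 4.75). With Akti1/2 the rises of these 4 genes were also smaller without the correction, at 2 h for example 1.17 for Il3, 2.08 for Il10, 0.81 for Il13 and 1.55 for Csf2. All these rises were called either way. Between the arms the difference was -2.37 for Il5 and -2.18 for Il13 at 2 h and -2.77 for Il13 at 12 h, the difference in response of Il5 at 2 h was -2.18 and its rise from 2 to 6 h with Akti1/2 was 2.67, all still called.

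The difference in response was called lower with Akti1/2 for 4 of the 7 genes at 2 h (Il3, Csf2, Il13 and Il5), for 6 at 6 h (all but Il4) and for 5 at 12 h (not Il4 or Il10). Over all genes 4.16%, 9.24% and 16.2% were called lower and 4.23%, 10.3% and 16.3% higher. None of the 7 was called higher by limma. With arrays scaled to the same mean in place of quantile normalization, the median over all genes at 6 h moved from -0.01 to 0.12, the calls split into 1156 higher of 1608 instead of 762 of 1445, and the 7 genes kept their calls in these 3 comparisons.

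The time of the highest level differed between the genes and, for some, between the arms. From 2 to 6 h in control cells Il3 (2.64), Il5 (2.66) and Il10 (2.10) rose further (adjusted p = 2.45e-05, 6.33e-05 and 8.15e-05), 3 of 7 against 7.41% of all genes. From 6 to 12 h Il3 rose again (0.85, adjusted p = 0.0273) and Areg fell (-1.27, adjusted p = 0.00243), against 6.94% of genes higher and 6.64% lower. The Il3 call was lost when any of the 4 arrays compared was left out (adjusted p = 0.0657 to 0.154) and with no filter on dim genes (0.0554). Il10 changed by -0.66 in this step (adjusted p = 0.0591), or by -1.02 (0.0148) without replicate 1 of the 12 h cells. With Akti1/2, 4 of 7 rose from 2 to 6 h (Il3 by 2.33, Il5, Csf2 and Il10), against 16% of genes, and the Il10 rise of 0.72 (adjusted p = 0.0247) was lost without either 2 h array or replicate 1 at 6 h (0.0683 to 0.127). From 6 to 12 h with Akti1/2, Il3 rose by 1.5 (adjusted p = 0.000941) while Areg (-1.69, 0.000283) and Il5 fell, against 8.9% of genes higher and 8.82% lower. Between 2 and 12 h the gap between the arms moved up for 2 of the 7 genes (Il4 and Csf2) and down for 1 (Areg), against 16% and 15.4% of genes.

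Ordered by level, control cells at 6 h held the highest mean for Csf2, Il10, Il13 and Areg, control cells at 12 h for Il3 and Il5, and Akti1/2-treated cells at 12 h for Il4. For Il5 the arrays of the control groups at 12 and 6 h overlapped, as did those of Csf2 in Akti1/2-treated cells at 12 and 6 h, and, for Il4, those of control cells at 6 h with Akti1/2-treated cells at 2 h on one side and with control cells at 2 h on the other. The lowest mean was at 0 h for Il3, Il4, Il10, Il13 and Csf2, in Akti1/2-treated cells at 2 h for Il5 and in Akti1/2-treated cells at 12 h for Areg. Across the 8 group means, the pairwise Pearson correlation of the 7 genes ran from 0.22 (Areg and Il4) to 0.97 (Il10 and Il3). It was 0.24 for Il4 and Il5, 0.33 for Il4 and Il13 and 0.84 for Il13 and Il5. These are descriptions over 8 points that share the arrays and the time course.

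By the same correlation over the 8 group means among the genes tested, Irf1 (r = 0.991) was most like Il4, and 6530404N21Rik (0.974) was also among its leading 3. The 3 most like Il3 were Ccl4 (0.987), Bcl3 (0.984) and Bcl2a1d (0.98), and Ccl4 (0.992) also came before Tusc2 (0.99) and Gadd45b (0.989) for Il10. For Il5 they were 5730472N09Rik (0.977), Socs3 (0.972) and Il2rg (0.967). For Il13 they were Il6 (0.99), Il10ra (0.988) and Tnfsf14 (0.984), for Csf2 Ier3 (0.978), Nfkbie (0.975) and Zbed4 (0.962), and for Areg Ovca2 (0.988), AI836003 (0.957) and Il6 (0.951). The correlation leaves out the size of the changes. Between the lowest and highest group mean these genes spanned from 0.59 (Ovca2) to 5.43 (Gadd45b) on the log2 scale. Zbed4 spanned 0.67, Tusc2 0.97 and Il2rg 1.09, while the means of Areg itself ran from 8.78 to 12.5. Irf1, an interferon-induced transcription factor gene, is also a neighbour of Il5 on the chromosome. Its group means in control cells rose by 1.42 at 6 h (adjusted p = 2.55e-06) and its response at 12 h was larger with Akti1/2 (0.79 ± 0.16, adjusted p = 0.00255).

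The J5 score used by the study sets the difference between mean linear intensities against its mean size over all genes, regardless of sign, with no error term, so it weights bright probes. The study chose a threshold for each time, and the one it states for 2 h, 20, was applied here to every comparison. In control cells the threshold was passed at 2, 6 and 12 h by 4, 7 and 6 of the 7 genes, against 0.673%, 0.728% and 0.645% of the 18138 genes, and with Akti1/2 by 1, 1 and 2, against 0.662%, 0.667% and 0.855%. Il4 was the 1 gene at 2 and 6 h with Akti1/2 (20.2 and 31.2), and Il3 (25.4) joined it at 12 h (32.7). Without replicate 1 of the 2 h or replicate 2 of the 0 h Akti1/2 cells the 2 h score of Il4 was 12.4 or 17.2, and without replicate 2 of the 12 h Akti1/2 cells that of Il3 was 18.7. Il5 held the highest score in control cells at 12 h (124.8, against 4.2 with Akti1/2). Where only genes above background entered the mean, 12 of the 70 scores of the 7 genes passed in place of 33.

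Other genes of these pathways were counted by list. Of 10 tested genes for other cytokines, 6 rose in control cells at 2 h, 9 at 6 h and 8 at 12 h, and at 6 h Csf1 fell, against 4.42%, 12.1% and 12.7% of all genes called higher. With Akti1/2 a lower response was called for 4, 8 and 5 of them, against 4.16%, 9.24% and 16.2% of all genes. Il24, counted at 6 h both as risen and as lower in response, was above background on 3 arrays, all of stimulated control cells. Lta, counted in both ways too, was above background on 8 arrays (all 6 of stimulated control cells and 2 with Akti1/2), and Il6, counted as risen, on 0 of the 4 arrays at 0 h. Having passed the filter on dim genes through the groups where they were high, these genes add no support to the counts. A higher response was called for 0, 1 and 1, against 4.23%, 10.3% and 16.3% of all genes, the gene at 6 and 12 h being Csf1 (1.52 and 1.19, adjusted p = 0.000818 and 0.00163), which encodes macrophage colony-stimulating factor. Tnf, the gene for tumour necrosis factor, rose by 3.36 ± 0.24 at 6 h in control cells (adjusted p = 9.62e-07) and by 1.18 with Akti1/2, a difference in response of -2.18 (0.00114). Il6, an inflammatory cytokine gene above background on 10 arrays, also rose at 6 h (adjusted p = 0.000427), while its difference in response was not called (0.0551) except with the chip as a block (0.0427), without background correction (0.0184) and without replicate 2 of either 6 h group.

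Receptor genes were mostly dim: 4 of 12 were tested, of which Il10ra (adjusted p = 0.00144, above background on 12 arrays) and Il2rg (0.80, adjusted p = 0.00144) rose at 6 h in control cells, against 12.1% of all genes, and for 0 of the 4 was the response at 6 h called different by limma, against 9.24% lower and 10.3% higher over all genes, although that of Il10ra was without replicate 1 of the 6 h Akti1/2 cells and that of Il2rg without background correction (0.0358). At 12 h the response was higher for Il10rb (adjusted p = 0.00716) and lower for Il2rg (-0.67, 0.0237). This was 1 of 4 each, against 16.3% and 16.2% of all genes. At 0 h Il10ra and Il10rb were each above background on 1 control array and 0 Akti1/2 arrays. Having passed the filter on dim genes through stimulated groups, Il10ra and Il10rb add no support to the counts of receptor genes. Of 7 tested JAK and STAT genes, 4 rose at 6 h, against 12.1% of all genes, led by Jak2 (3.42, adjusted p = 3.05e-09) and Stat5a (1.36, 2.52e-05). At 6 h the response differed for 1 of the 7, Stat5a (-1.23, adjusted p = 0.00147), against 9.24% of all genes called lower and 10.3% called higher. At 12 h it was again lower for Stat5a (-1.21, adjusted p = 0.000761) and higher with Akti1/2 for 4, against 16.3% of all genes, namely Tyk2 (1.09, 0.00044), Jak2 (0.99, 0.00154), Stat3 (0.91, 0.0114) and Stat6 (adjusted p = 0.0478). Of the 7 relatives of Areg in the EGF family, Btc alone was tested, with a level above background on 9 arrays. It fell at 6 h in control cells (adjusted p = 0.00282), where it was above background on 0 arrays, so that level is only a bound. Btc passed the filter on dim genes through the groups where it was high, so its calls add no support. Its difference in response at 6 h was called higher with Akti1/2 (adjusted p = 0.0157), but not without background correction (0.103) or without replicate 2 of control cells at 0 h (0.0601).

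Genes for regulators of these loci were counted in the same way. Of 20 tested, 10 rose and 2 fell at 6 h in control cells, against 12.1% and 15.4% of all genes. Batf (3.62, adjusted p = 1.95e-08) and Irf4 (3.34, 1.64e-07), partners on cytokine gene elements, were in the lead. Rel, Bcl6 and Runx1, counted as risen, were not above background at 0 h in either arm. Having passed the filter on dim genes through stimulated groups, they add no support to the count. The response at 6 h was lower with Akti1/2 for 2 of 20 and higher for 4, against 9.24% and 10.3% of all genes. The median over the 20 was -0.06. Bcl6, counted as higher in response, adds no support to this count either. Batf was lower (-0.94, adjusted p = 0.0157, or 0.054 to 0.0626 without replicate 2 of either 0 h group or replicate 1 of control cells at 6 h). Cebpb (1.72, adjusted p = 6.07e-05) and Satb1 (1.19, 0.000272), a chromatin organizer of the Th2 locus, were higher. For Gata3 no difference in response was called at 2 h (0.54, adjusted p = 0.0646), 6 h (-0.11, 0.690) or 12 h (-0.07, 0.790), while its level at 2 h was higher with Akti1/2 (0.53, 0.00624) and this gap was smaller at 12 h (-0.61, 0.0154). Of 6 tested genes for mRNA decay factors, 3 rose at 6 h in control cells, against 12.1% of all genes. They were led by Zc3h12a (3.05, adjusted p = 6.1e-07) and Zfp36 (2.60, 7.99e-08). The other, Rc3h1, was not above background at 0 h in either arm. It passed the filter on dim genes through stimulated groups, so it adds no support to the count. The response was called different for 0 of these 6 genes at 6 h by limma. It was called for 1 at 2 h (Khsrp, 0.95, adjusted p = 0.027) and for 1 at 12 h (Elavl1, -0.83, adjusted p = 0.0194). Over all genes 9.24% were called lower and 10.3% higher at 6 h, 4.23% higher at 2 h and 16.2% lower at 12 h. Without background correction the rises of Tnf (2.70), Jak2 (2.52), Batf (2.99), Irf4 (2.48) and Zc3h12a (1.88) at 6 h in control cells were smaller and still called.

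**Figure D4:**
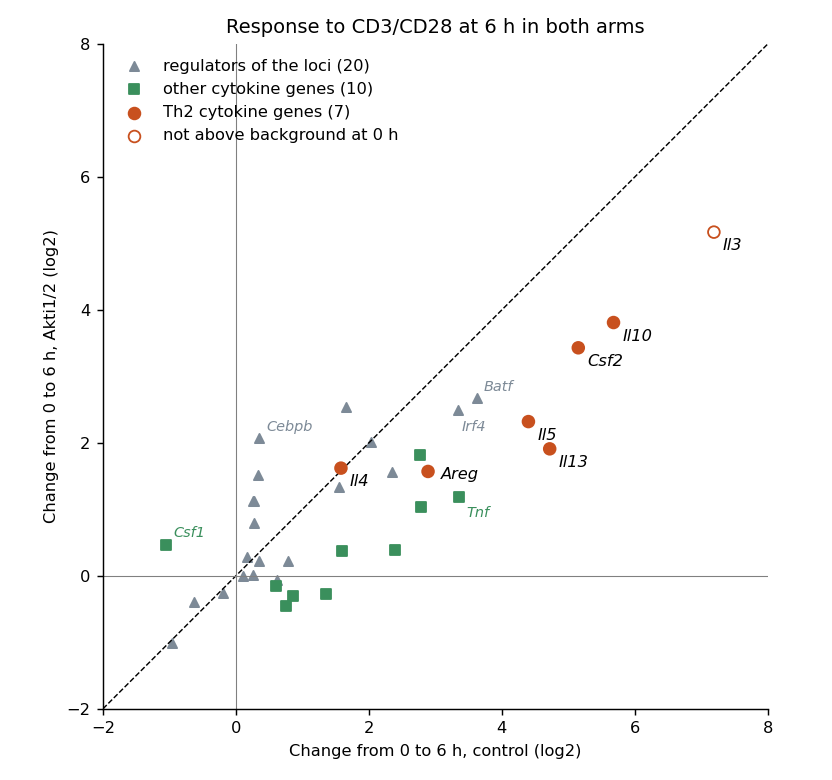
Change from 0 to 6 h in Akti1/2-treated cells (y axis) against control cells (x axis) on the log2 scale, with a point per gene for the 7 Th2 cytokine genes, 10 other cytokine genes and 20 regulators, and a dashed line of equal change. Of the 7, Il4 lies on the line and the others below it, and Il3 is drawn open because its 0 h level is only a bound. Il6, Lta, Il24, Rel, Bcl6 and Runx1 were not above background at 0 h either, so their 0 h levels are also only bounds.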

How the data were processed

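RNA of 16 samples was measured on 16 Illumina mouse arrays placed on 2 chips of 8. The authors deposited non-normalized probe intensity, summarised per gene by the GenomeStudio gene expression module (version 1.5.4 in the file header), with 832 control entries. The authors gave 18138 genes an intensity on each array. The number of arrays, 2 per group, limits the precision. Between 6288 and 6907 genes were above background per array.

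Intensities were corrected with the normexp model on 798 negative controls (offset 16), quantile-normalized and log2-transformed (neqc), then fitted over all 8 groups with limma 3.58.1 (lmFit, eBayes, R 4.3.3) with 8 residual degrees of freedom. The 7395 genes whose detection p was below 0.01 on 2 or more arrays were tested, and p-values were adjusted by Benjamini-Hochberg within each of 18 contrasts. Tables used Python 3.11.15 with pandas 2.3.3, numpy 2.4.6 and scipy 1.17.1, and figures matplotlib 3.10.9. Lower bounds for Il3 use the lowest signal above background on each 0 h array. The J5 score was computed on linear intensities scaled to a common 95th percentile.

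The members and gene lists were chosen with earlier results of these data known. All 7 members are named. For each list the 2 called genes with the largest change at 6 h in control cells are named, and others where a count needs them, and for likeness the 3 genes with the highest correlation, of which 1 is not reported here. Fold changes are not given for listed genes that were not above background in a group. Same-numbered replicates did not deviate together (r from -0.30 to 0.26 over 28 pairs of groups, 7 above 0.1), so the number was not used as a block in the fit. Alternatives were mean scaling, quantile normalization without background correction, no filter or a filter on all arrays, a fit restricted to the groups in question, a chip or replicate block, and leaving out each array.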

Additional observations from a re-analysis of the deposited data

Results flagged for a closer look

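For 3 of the 7 genes the gap between Akti1/2-treated and control cells at 12 h differed from that at 2 h by the test of that difference in limma with Benjamini-Hochberg adjustment, against 16% of all genes called with a positive and 15.4% with a negative change of the gap. Il4 moved from 0.32 to 0.99, a change of 0.66 (adjusted p = 0.0228). The call was lost without replicate 1 of the 2 h control, replicate 2 of the 2 h Akti1/2, either 12 h control or replicate 1 of the 12 h Akti1/2 cells (adjusted p = 0.0515 to 0.0891).

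Csf2 moved from -3.14 to -2.14, a change of 1.0 (adjusted p = 0.0203). The call was lost without replicate 1 of the 2 h control, 2 h Akti1/2 or 12 h control cells, without replicate 2 of the 12 h Akti1/2 cells (0.64, adjusted p = 0.0693) and in a fit of only those groups (0.0537). Areg moved the other way, from -1.38 to -2.45, a change of -1.06 (adjusted p = 0.0186). Without replicate 2 of the 2 h Akti1/2 cells its adjusted p was 0.0618, and without replicate 1 of the 12 h Akti1/2 cells the change was -0.70 (adjusted p = 0.0674). For Il3 (0.35, adjusted p = 0.443), Il5 (-0.66, 0.185), Il10 (-0.06, 0.890) and Il13 (-0.76, 0.375) the change was not called. That of Il5 was called without replicate 1 of the 2 h Akti1/2 cells (-1.07, adjusted p = 0.0279) and without background correction (-1.15, 0.00295).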

How the results depend on the processing

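With an array left out, the number of the 7 genes called was 7 in control cells at each time against 0 h, 6 to 7, 6 to 7 and 5 to 6 with Akti1/2, and 5 to 6, 6 to 7 and 6 to 7 between the arms at 2, 6 and 12 h. It was 3 to 4, 6 and 5 to 6 for the difference in response, 1 to 2 from 6 to 12 h in control cells, 2 to 4 from 2 to 6 h with Akti1/2 and 1 to 3 for the change of the gap from 2 to 12 h. Without background correction 5 of the 7 were called from 2 to 6 h in control cells in place of 3, and with no filter on dim genes 1 in place of 2 from 6 to 12 h. The replicate block and the chip block each changed 2 of 126 calls, those given with Il4 (adjusted p = 0.0186 at 12 h with the replicate block) and Il10, and no other.

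Values that changed sign were uncalled ones. Mean scaling gave -0.01 for the Il4 difference in response at 6 h and 0.02 for Areg from 2 to 6 h with Akti1/2, and omitting background correction gave -0.07 for the Il3 change of gap. With an array left out, ranges crossing 0 were -0.5 to 0.25 (Areg, 0 to 12 h with Akti1/2), -0.2 to 0.19 (Il10, arms at 0 h), -0.29 to 0.05 and -0.06 to 0.14 (Il4, difference in response at 2 and 6 h), -0.04 to 0.43 (Il5, 6 to 12 h in control cells), -0.32 to 0.81 and -0.33 to 0.17 (Il13 and Areg, 2 to 6 h with Akti1/2), -1.24 to 0.11 and -0.33 to 0.39 (Il13 and Csf2, 6 to 12 h with Akti1/2) and -0.43 to 0.3 (Il10, change of gap).

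Over all genes, a fit of only the groups compared called 435 in place of 760 (control, 2 h), 1478 for 2465 (Akti1/2, 6 h), 1125 for 2099 and 1645 for 2779 (arms at 2 and 6 h), 502 for 1078 (control, 2 to 6 h), and 606 for 2231 and 345 for 1310 (Akti1/2, 2 to 6 and 6 to 12 h). At 12 h it called more in control cells (2279 for 2055), between the arms (3754 for 3621) and for the difference in response (2753 for 2404). With Akti1/2 it called fewer at 12 h (3262 for 3288). Between the arms at 0 h it called 2 genes in place of 4, and 7 were called without background correction. Mean scaling moved the share called higher to 223 of 860 from 327 of 760 (control, 2 h), 645 of 2105 from 898 of 2038 (control, 6 h) and 1718 of 2825 from 1391 of 2779 (arms, 6 h). For the difference in response it moved to 390 of 603 from 313 of 621 at 2 h and to 1478 of 2439 from 1203 of 2404 at 12 h. Il3 has no value where genes had to be above background on all arrays. The cause of these changes was not tested. Duplicate arrays and dim 0 h levels limit the precision.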

Other observations

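Of the genes nearest to the 7 on their chromosomes, 19 were tested, of which 5 rose and 5 fell at 6 h in control cells, against 12.1% and 15.4% of all genes. The difference in response at 6 h was called higher with Akti1/2 for 4 and lower for 2, against 10.3% and 9.24% of all genes, with a median of 0.08. The 2 lower were Il24, above background on 3 arrays of stimulated control cells, and Fcmr, above background on 7 arrays. At 6 h Fcmr was above background on 0 arrays of either arm. Il24 and Fcmr passed the filter on dim genes through the groups where they were high, so they add no support. Btc, counted as fallen and as higher in response, was above background on 0 control arrays at 6 h and adds no support to those counts. Rad50, a DNA repair gene between Il13 and Il5, fell by 0.49 on the log2 scale at 6 h in control cells (adjusted p = 0.00564, limma with Benjamini-Hochberg adjustment). Kif3a, a kinesin gene beside Il4, changed by -0.01 (adjusted p = 0.980). Fnip1 changed by -0.70 in control cells (adjusted p = 0.00497) and its difference in response was 1.42 (0.00101). Cxcl2, a neutrophil chemokine gene near Areg, and Ikbke near Il10 rose at 6 h in control cells (adjusted p = 7.06e-08 and 7.97e-05). They were above background on 12 and 13 arrays, but on 0 of those of control cells at 0 h. Having passed the filter on dim genes through stimulated groups, Cxcl2 and Ikbke add no support to the count of rises either.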
